A study of Mus musculus with 36 samples.

Results

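Chemokine receptors were described across adipose tissue and liver. The set held 9 genes of the 56748 in the deposited table, taken by gene name: Cxcr4, Ackr3, Ackr1, Ccr1, Ccr2, Ccr7, Cx3cr1, Cxcr3 and Cxcr6. The question was whether the Cxcr4 level followed leukocyte content or differed from the other receptors. Poly(A) RNA was sequenced from the epididymal adipose tissue (visceral white adipose tissue, visWAT) and the liver of 18 male mice on a C57BL/6J background. From an age of 16 weeks the animals were kept for 16 weeks on chow (normal chow diet, NCD) or on food rich in fat (high-fat diet, HFD). MlklAdi-KO mice carried loxP-flanked alleles of Mlkl, the pseudokinase that executes necroptosis, together with a Cre transgene meant for mature adipocytes. The WT littermates carried the flanked alleles without Cre, so every mouse held the loxP sites. Each genotype had 4 NCD mice and 5 HFD mice, and with 1 library per mouse and tissue the 36 libraries formed 8 groups. Because Cre acts only in adipocytes, Mlkl of the other cells in the tissue stays in the RNA.

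Chemokine receptors are membrane proteins that mostly couple to inhibitory G proteins and steer cells along gradients of small secreted chemokines. Cxcr4 binds Cxcl12 and holds leukocytes and progenitors in tissues, but it is also made by endothelial and stromal cells. Ackr3 binds the same ligand and removes it without G protein signalling, while Ackr1 is an atypical receptor of venular endothelium and red cell precursors that takes up many inflammatory chemokines. Ccr1 and Ccr2 bring monocytes into inflamed tissue, Ccr7 guides dendritic cells and naive T cells to lymph nodes, Cx3cr1 marks patrolling monocytes and resident macrophages, and Cxcr3 and Cxcr6 mark effector T cells, NK cells and related lymphocytes. In obese adipose tissue, the Ccl2 to Ccr2 route is best known for the recruitment of monocytes that become macrophages.

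In the deposited table (build GRCm39), Cxcr4 (ENSMUSG00000045382) spans positions 128515936 to 128520030 of chromosome 1, which also carries Ackr3 and Ackr1, while Ccr1, Ccr2, Cx3cr1 and Cxcr6 are on chromosome 9, Ccr7 on chromosome 11 and Cxcr3 on chromosome X. Promoter sequence, running from 250 bases upstream to 50 bases downstream of the transcription start, was found in the RefSeq set (build GRCm38.p6, so that the promoter positions do not transfer to those of the table) for 8 of the 9 receptors. Ccr7 was not matched. The promoters of Cxcr4, Ccr1 and Ccr2 are printed because these 3 receptors had the highest differences between the diets in WT visWAT on the log2(FPKM + 1) scale. They lie at chr1:128592250-128592549 on the minus strand, chr9:123968643-123968942 on the minus strand and chr9:124101933-124102232 on the plus strand. Capitals mark matches to the TATA box TATAAA, the GC box GGGCGG, the CCAAT box CCAAT and the PU.1 core GAGGAA, each searched on both strands.
Cxcr4: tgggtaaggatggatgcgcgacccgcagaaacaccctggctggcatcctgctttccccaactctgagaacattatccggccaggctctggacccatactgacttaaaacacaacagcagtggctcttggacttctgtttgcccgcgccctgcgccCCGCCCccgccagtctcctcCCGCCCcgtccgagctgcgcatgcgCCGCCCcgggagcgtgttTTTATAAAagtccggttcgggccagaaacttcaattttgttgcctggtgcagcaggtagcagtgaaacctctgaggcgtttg
Ccr1: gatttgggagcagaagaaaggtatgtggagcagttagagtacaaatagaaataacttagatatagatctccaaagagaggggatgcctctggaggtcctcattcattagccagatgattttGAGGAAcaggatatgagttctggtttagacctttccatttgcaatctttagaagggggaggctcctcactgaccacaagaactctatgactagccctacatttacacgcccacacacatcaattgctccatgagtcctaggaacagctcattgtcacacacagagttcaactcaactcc
Ccr2: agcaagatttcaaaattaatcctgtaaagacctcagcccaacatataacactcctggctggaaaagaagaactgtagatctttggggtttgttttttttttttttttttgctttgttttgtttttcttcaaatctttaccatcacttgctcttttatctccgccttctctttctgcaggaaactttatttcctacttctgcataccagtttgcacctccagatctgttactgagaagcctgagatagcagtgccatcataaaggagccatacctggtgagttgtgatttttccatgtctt
The Cxcr4 window held 3 GC boxes, all read as CCGCCC, and 2 overlapping TATA matches around one run of A and T near the start. The Ccr1 window held 1 PU.1 core and the Ccr2 window none of the 4 motifs. The GC content was 59.3% for Cxcr4, 44.0% for Ccr1 and 38.0% for Ccr2, against a median of 52.7% over 32851 promoters. Cxcr4 was richer in G and C than 68.9% of these promoters, and Ccr2 than 7.0%. The motifs themselves were common, being present in 13.6% (TATA box), 35.7% (GC box), 37.4% (CCAAT box) and 28.3% (PU.1 core) of all promoters. Among the other receptors, Ackr3 held a TATA box, a GC box and a CCAAT box, Cx3cr1 a CCAAT box and Cxcr3 a PU.1 core, whereas Ackr1 and Cxcr6 held none. These matches describe the letters of the windows only.

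The libraries held 20875463 to 30322171 reads on genes, and expression was given as FPKM, fragments per kilobase of gene and library size, so that levels of different genes can be set side by side. Mlkl, the targeted gene, served as the check of the labels. In visWAT, its FPKM was 5.11, 4.63, 2.29 and 3.91 in the WT NCD mice 165, 180, 182 and 183, and 2.20, 1.96, 2.49 and 2.10 in the MlklAdi-KO NCD mice 166, 179, 197 and 199. On HFD it was 4.58, 5.19, 4.88, 5.50 and 6.28 in the WT mice 154, 155, 161, 162 and 164, and 2.39, 2.68, 2.72, 2.55 and 2.32 in the MlklAdi-KO mice 151, 152, 153, 156 and 157. All values below follow this order of mice. The HFD groups did not overlap, but the library labelled WT NCD mouse 182 lay within the range of the MlklAdi-KO NCD mice. In the visWAT library of WT NCD mouse 183, genes of the seminal vesicle, which lies next to the epididymal fat, took 17.5% of the reads, against at most 0.0247% in any other library. The main limma comparisons of the receptors with the WT NCD visWAT group are therefore also given without these 2 visWAT libraries. Limma fits with the macrophage list, and limma values of other gene lists, that rest on this group are given only with both libraries. In the liver, Mlkl ranged from 1.62 to 4.19 FPKM. The adipocyte marker genes were all detected in visWAT (summed FPKM of 3629 to 7309), and in the liver 1 library, from WT NCD mouse 182, stood apart in several receptors.

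On the log2(FPKM + 1) scale, Cxcr4 had the highest difference between the diets of the set in WT visWAT, while the groups of Ackr3, which shares its ligand, overlapped. In visWAT on NCD, Cxcr4 measured 4.71, 5.87, 4.25 and 5.72 FPKM in WT mice and 3.07, 3.37, 4.32 and 3.11 FPKM in MlklAdi-KO mice. On HFD, it measured 12.9, 13.9, 15.1, 13.2 and 13.3 FPKM in WT mice and 5.79, 8.91, 9.39, 5.53 and 6.30 FPKM in MlklAdi-KO mice. Each HFD group lay above the NCD group of its genotype, and every HFD MlklAdi-KO mouse lay below every HFD WT mouse, whereas on NCD the ranges of the genotypes met in 1 MlklAdi-KO mouse. The group means were 5.14 ± 0.785 (SD, n = 4), 3.47 ± 0.585 (n = 4), 13.7 ± 0.868 (n = 5) and 7.18 ± 1.82 FPKM (n = 5) for WT NCD, MlklAdi-KO NCD, WT HFD and MlklAdi-KO HFD.

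Ackr3, the scavenging receptor of Cxcl12, was the most abundant receptor of the set in visWAT by FPKM. It measured 15.1, 12.7, 16.0 and 11.7 FPKM in WT NCD mice, 15.2, 15.9, 13.7 and 13.4 FPKM in MlklAdi-KO NCD mice, 18.5, 13.2, 15.1, 14.5 and 12.5 FPKM in WT HFD mice and 13.0, 13.5, 11.1, 14.9 and 17.1 FPKM in MlklAdi-KO HFD mice. The 4 groups overlapped throughout, with means between 13.9 and 14.8 FPKM. In lean mice of both genotypes and in MlklAdi-KO mice on HFD, Ackr3 lay above the Cxcr4 range, but in WT mice on HFD the ranges of the pair overlapped, with means of 14.8 and 13.7 FPKM.

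Ackr1, the atypical receptor of venules, measured 3.02, 3.77, 2.18 and 2.18 FPKM in WT NCD mice, 3.82, 3.36, 3.30 and 3.51 FPKM in MlklAdi-KO NCD mice, 4.67, 3.56, 3.48, 4.11 and 4.09 FPKM in WT HFD mice and 4.76, 3.39, 4.12, 3.47 and 4.54 FPKM in MlklAdi-KO HFD mice. The lowest values belonged to the WT NCD mice 182 and 183, and the other groups overlapped one another.

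Ccr1, a receptor for Ccl3 and Ccl5 on monocytes and macrophages, was low on NCD, with 0.566, 0.397, 0.938 and 0.703 FPKM in WT mice and 0.958, 1.16, 1.33 and 0.853 FPKM in MlklAdi-KO mice. On HFD it reached 2.77, 2.19, 1.95, 2.42 and 1.71 FPKM in WT mice and 2.58, 3.04, 2.85, 1.14 and 1.21 FPKM in MlklAdi-KO mice. The MlklAdi-KO HFD mice thus split, 3 of them at or above 2.58 FPKM and mice 156 and 157 within the NCD range of their genotype. Ccr2, the receptor of Ccl2 on inflammatory monocytes, measured 2.36, 1.79, 1.19 and 1.98 FPKM in WT NCD mice and 2.59, 2.74, 2.97 and 2.0 FPKM in MlklAdi-KO NCD mice. On HFD it measured 4.54, 5.78, 4.75, 5.82 and 4.39 FPKM in WT mice and 3.98, 4.85, 5.82, 3.92 and 5.07 FPKM in MlklAdi-KO mice. All HFD mice lay above all NCD mice, and on HFD the genotypes overlapped.

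Ccr7, the lymph node homing receptor, measured 0.341, 0.276, 0.411 and 0.627 FPKM in WT NCD mice, 0.293, 0.148, 0.238 and 0.332 FPKM in MlklAdi-KO NCD mice, 1.22, 1.51, 0.953, 1.93 and 0.903 FPKM in WT HFD mice and 0.338, 1.09, 1.20, 0.806 and 0.519 FPKM in MlklAdi-KO HFD mice. Both HFD groups lay above the NCD group of their genotype, in MlklAdi-KO mice by a narrow gap. Cx3cr1, the fractalkine receptor, stayed low, with group means of 0.396 ± 0.101 and 0.275 ± 0.0961 FPKM on NCD (n = 4 each) and 0.513 ± 0.0433 and 0.383 ± 0.225 FPKM on HFD (n = 5 each) for WT and MlklAdi-KO mice. Its MlklAdi-KO HFD mice spread from 0.151 to 0.699 FPKM and overlapped all other groups.

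Cxcr3, the receptor of the interferon-induced chemokines Cxcl9 and Cxcl10, measured 0.650, 0.408, 0.810 and 1.07 FPKM in WT NCD mice, 0.705, 0.677, 0.458 and 0.917 FPKM in MlklAdi-KO NCD mice, 1.54, 1.42, 2.28, 1.82 and 1.57 FPKM in WT HFD mice and 0.932, 1.39, 1.54, 0.999 and 1.40 FPKM in MlklAdi-KO HFD mice. The HFD groups lay above the NCD groups of their genotype, and 4 of the 5 MlklAdi-KO HFD mice lay below all WT HFD mice. Cxcr6, the receptor of Cxcl16, had group means between 0.507 and 0.692 FPKM, with all groups overlapping and single mice from 0.395 to 1.29 FPKM.

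**Figure D1:**
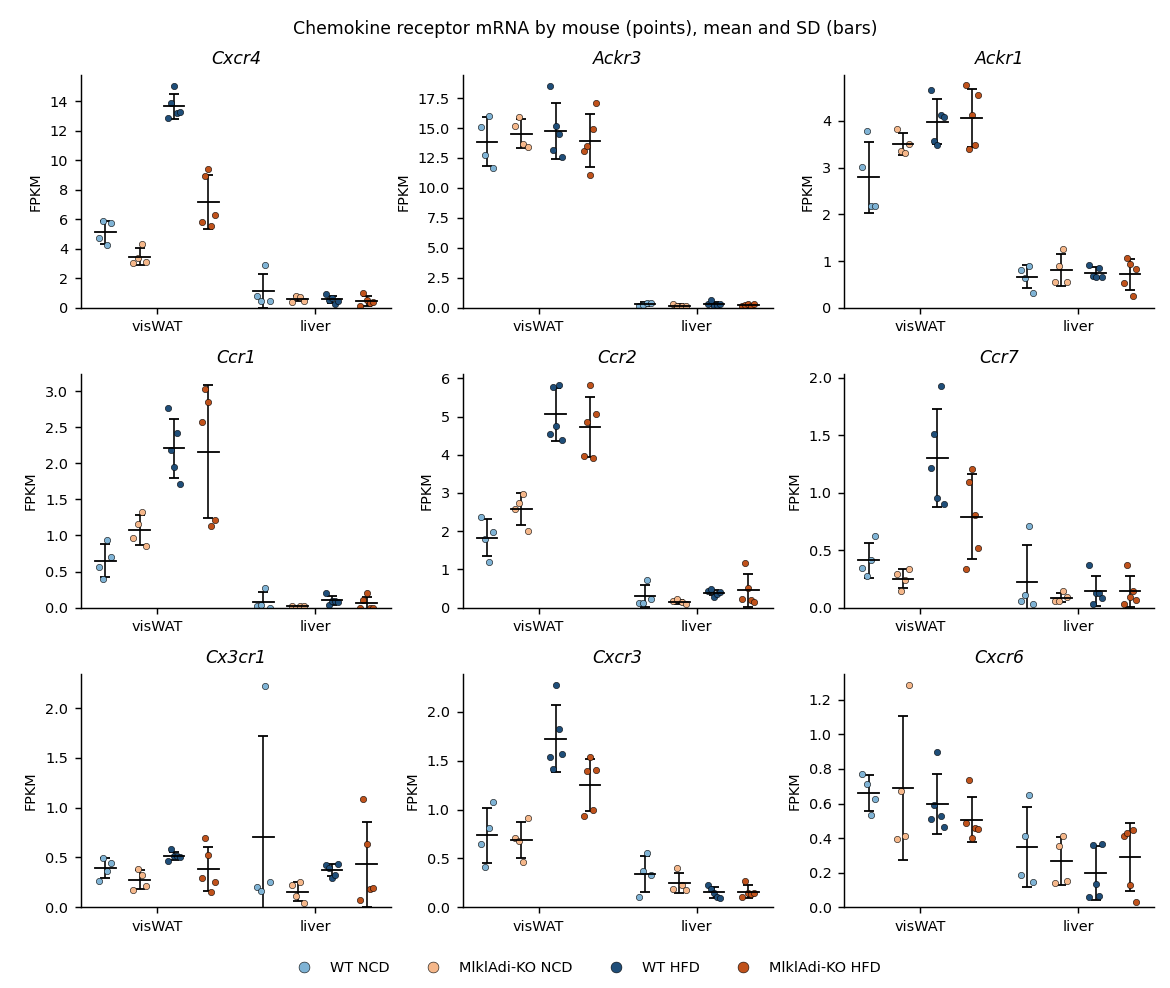
FPKM of the 9 chemokine receptors, 1 panel per gene with its own vertical axis, in 36 libraries ordered by tissue, diet and genotype; each point is 1 mouse and the horizontal line and whiskers are mean ± SD (n = 4 on NCD, n = 5 on HFD). Cxcr4 in visWAT reached 12.9 to 15.1 FPKM in WT HFD mice and 5.53 to 9.39 FPKM in MlklAdi-KO HFD mice, while Ackr3 had means between 13.9 and 14.8 FPKM in the 4 visWAT groups.

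In WT visWAT, HFD against NCD raised 6 of the 8 receptors that passed the filter of a mean of 0.5 FPKM, at an adjusted p threshold of 0.05 in limma on log2(FPKM + 1). In the same comparison 37.8% of all 14161 genes were called, 21.9% as higher. The log2 differences, HFD minus NCD, were 1.26 for Cxcr4 (SE 0.09, adjusted p = 7.88e-06), 1.11 for Ccr2 (SE 0.13, adjusted p = 0.000151), 0.96 for Ccr1 (SE 0.12, adjusted p = 0.000245), 0.69 for Ccr7 (SE 0.14, adjusted p = 0.00391), 0.66 for Cxcr3 (SE 0.13, adjusted p = 0.00326) and 0.41 for Ackr1 (SE 0.13, adjusted p = 0.035). On the FPKM scale, the HFD mean was 2.66 times the NCD mean for Cxcr4, 2.77 times for Ccr2, 3.39 times for Ccr1, 3.15 times for Ccr7 and 2.34 times for Cxcr3, because the pseudocount of 1 understates changes of low genes. Ackr3 (0.08, SE 0.13, adjusted p = 0.635) and Cxcr6 (-0.06, SE 0.09, adjusted p = 0.65) were not called, and Cx3cr1 did not pass the filter. Ccr7 passed the filter only through the HFD mice, so its call is no independent count. Without the WT NCD mice 182 and 183, Ackr1 was no longer called (0.18, adjusted p = 0.204), while Cxcr4 (1.22, adjusted p = 4.7e-05), Ccr2 (0.98), Ccr1 (1.11), Ccr7 (0.80) and Cxcr3 (0.83) still were. The Ackr1 call was also lost when any 1 of the mice 182, 183, 154, 162 or 164 was left out (adjusted p between 0.0697 and 0.0765). Scaled to an equal total per library (TPM), the median log2 difference of all genes was 0.38 instead of -0.01 and the split of calls was 4298 higher and 253 lower instead of 3108 and 2239. The same 6 receptors were called on that scale.

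In MlklAdi-KO visWAT, the same diet comparison called 4 of 8 receptors, all higher, while 43.7% of 14026 genes were called 23.3% as higher and 20.3% as lower. Cxcr4 rose by 0.85 (SE 0.16, adjusted p = 0.00299), Ccr2 by 0.68 (SE 0.12, adjusted p = 0.00207), Cxcr3 by 0.41 (SE 0.11, adjusted p = 0.0148) and Ccr7 by 0.49 (SE 0.15, adjusted p = 0.0254) on the log2 scale. Ccr7 had again passed the filter through the HFD mice, and its call was lost without MlklAdi-KO NCD mouse 179 (adjusted p = 0.0652) or 197 (adjusted p = 0.0583). Ccr1, with the split among HFD mice given above, reached 0.56 (SE 0.21, adjusted p = 0.0564) and was called by edgeR (adjusted p = 0.0358) and DESeq2 (adjusted p = 0.00826) on the recovered reads. Ackr1 (0.16), Ackr3 (-0.07) and Cxcr6 (-0.14) were not called. Whether the diet response depended on genotype was tested by the interaction term. In limma the test called none of the 8 receptors and 0% of 14136 genes, with 1867 genes at an unadjusted p under 0.05, and edgeR called 0 and DESeq2 20 genes, none of them a receptor of the set. Cxcr4 (-0.41, SE 0.19, unadjusted p = 0.0481, adjusted p = 0.375) and Ccr2 (-0.43, SE 0.18, unadjusted p = 0.0302, adjusted p = 0.357) had the smallest unadjusted p-values. Without the WT NCD mice 182 and 183 the interaction again called no receptor, with Cxcr4 at -0.37 (adjusted p = 0.519) and Ccr2 at -0.30 (adjusted p = 0.529).

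For the genotype on HFD, MlklAdi-KO against WT, limma called none of the 8 receptors at the threshold, and 0.0215% of 13963 genes, which are 3 genes (0.00716% as lower, which was Mlkl alone). At an unadjusted p under 0.05 there were 3003 genes and 3 receptors, namely Cxcr4, Cxcr3 and Ccr7. The Cxcr4 difference was -0.87 on the log2 scale (SE 0.13, 95% interval -1.16 to -0.57, adjusted p = 0.0998), so that the MlklAdi-KO mean was 0.526 times the WT mean. A two-sided exact permutation test of Cxcr4 alone gave p = 0.00794, the smallest that 5 against 5 mice allow, without adjustment for the 9 receptors. DESeq2 on the recovered reads called Cxcr4 (-0.92, adjusted p = 1.05e-05) as the only receptor among 1.05% of genes called, and edgeR did not (-0.92, adjusted p = 0.112), with 3 genes called. Without MlklAdi-KO mouse 153, whose Cxcr4 level was the highest of its group, limma called Cxcr4 (-0.96, adjusted p = 0.0338). Cxcr3 (-0.27, SE 0.10, adjusted p = 0.221) and Ccr7 (-0.37, SE 0.16, adjusted p = 0.231) had smaller differences of the same sign. Ccr2 (-0.08, interval -0.32 to 0.15), Ackr3 (-0.08, interval -0.35 to 0.19), Cxcr6 (-0.08, interval -0.28 to 0.11), Ccr1 (-0.07, interval -0.50 to 0.37) and Ackr1 (0.02, interval -0.19 to 0.23) had intervals on both sides of 0, none of which reached the Cxcr4 difference.

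For the genotype on NCD, none of 7 receptors was called in limma, as 0% of 14063 genes were, with 528 genes and 3 receptors at an unadjusted p under 0.05. edgeR called 0 genes and DESeq2 8 genes, none of them a receptor. Cxcr4 was lower in MlklAdi-KO mice by the unadjusted estimate (-0.46, SE 0.12, interval -0.74 to -0.18, adjusted p = 0.916), whereas Ccr1 (0.33, SE 0.12, adjusted p = 0.916) and Ccr2 (0.35, SE 0.14, adjusted p = 0.916) had the opposite sign. Without mice 182 and 183, the values were -0.50 for Cxcr4, 0.48 for Ccr1 and 0.22 for Ccr2. On the TPM scale, where the median of all genes moved from 0.01 to 0.33, Cxcr4 was at -0.18, Ccr1 at 0.83 and Ccr2 at 0.78. The 2 genotype comparisons and the 2 diet comparisons share their groups, so these values are set side by side and were not correlated.

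**Figure D2:**
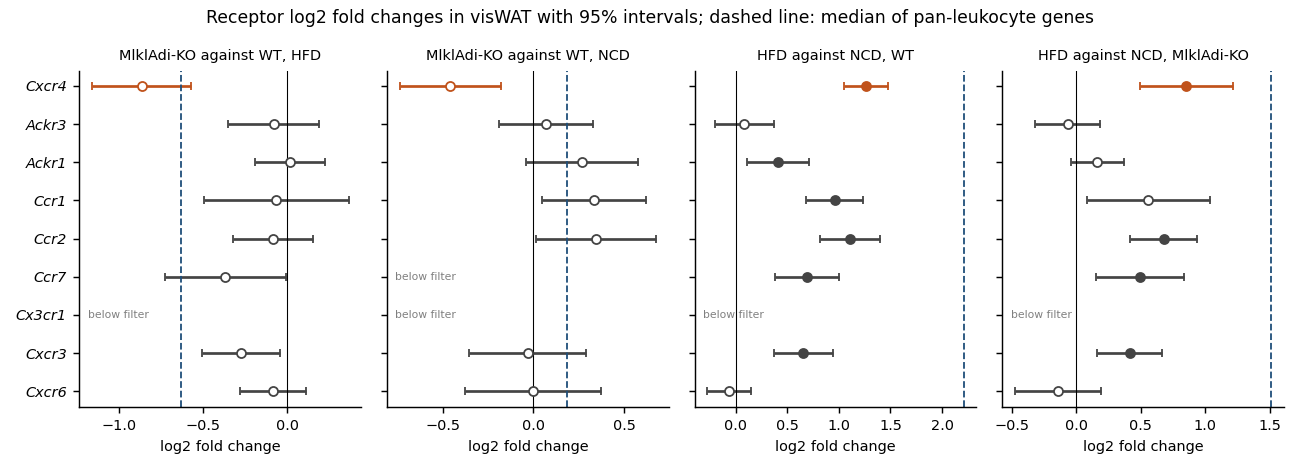
Log2 difference on log2(FPKM + 1) with its 95% interval for each receptor in 4 visWAT comparisons (genotype on HFD and NCD as MlklAdi-KO minus WT, diet in WT and in MlklAdi-KO mice as HFD minus NCD); filled points have an adjusted p under 0.05 and the dashed line is the median of 12 pan-leukocyte genes. Cxcr4 was at -0.87 for genotype on HFD and at 1.26 and 0.85 for diet; receptors that did not pass the filter are marked.

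Leukocyte content was followed by 12 genes made across blood cell lineages, Ptprc among them, averaged as log2(FPKM + 1) into an index. In bulk tissue, fewer leukocytes and less RNA per leukocyte cannot be told apart. None of the 12 genes was at 0 in any visWAT library. Their summed FPKM ranged from 42.3 to 53.0 in WT NCD mice, 47.5 to 69.6 in MlklAdi-KO NCD mice, 303.8 to 451.7 in WT HFD mice and 129.9 to 427.4 in MlklAdi-KO HFD mice. The index was 4.05, 4.54, 4.49, 4.27 and 4.30 in WT HFD mice and 3.73, 4.34, 4.47, 3.04 and 3.03 in MlklAdi-KO HFD mice, so that the MlklAdi-KO mice 152 and 153 lay within the WT range and the other 3 below it. The mean difference was -0.61 (two-sided exact permutation p = 0.119, but p = 0.0476 without mouse 152 and p = 0.0317 without mouse 153), and all 12 genes had a lower mean in MlklAdi-KO mice with a median log2 difference of -0.63, none of them called. On NCD the index differed by 0.18 (exact permutation p = 0.171). HFD raised it by 2.36 in WT and by 1.57 in MlklAdi-KO mice (exact permutation p = 0.00794 for each).

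Other cell types were followed by lists of marker genes. The 12 macrophage genes were all detected in every visWAT library, with a summed FPKM of 2560 to 3583 in WT and 1144 to 3252 in MlklAdi-KO HFD mice, and their index differed by -0.72 (exact permutation p = 0.0873). The 9 adipocyte genes summed to 3629 to 4289 FPKM in WT and 3971 to 7309 FPKM in MlklAdi-KO HFD mice (0.47, exact permutation p = 0.111), and the 8 endothelial genes to 187.7 to 212.0 and 178.4 to 349.8 FPKM (0.21, exact permutation p = 0.183). The 5 red blood cell genes summed to 304.6 to 642.6 FPKM in WT and 564.0 to 3908 FPKM in MlklAdi-KO HFD mice (1.25, exact permutation p = 0.0317), with groups that overlapped, and this was the 1 cell type list with a p under 0.05 for genotype on HFD, without adjustment over the lists. No gene of these 4 lists was at 0 in visWAT. The 10 T cell genes were low, at 2.98 to 4.92 FPKM in sum on HFD (-0.08, exact permutation p = 0.0635). Besides the leukocyte index that follows, the macrophage list was also used as the index in limma. Genotype then called 0 of 8 receptors on HFD, with Cxcr4 at -0.15 (adjusted p = 0.641), beside 4 of 13963 genes. On NCD it called 0 of 7 receptors, beside 0 of 14063 genes. Diet called all 8 receptors lower in both genotypes, but it also called 14079 of 14161 genes in WT and 13534 of 14026 genes in MlklAdi-KO mice. The fits with the macrophage list that rest on the WT NCD group are given only with mice 182 and 183. The part of the other cell types in the receptor differences was not tested.

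Mice with a like index differed in Cxcr4. The MlklAdi-KO HFD mice 152 and 153, with indices of 4.34 and 4.47, measured 8.91 and 9.39 FPKM of Cxcr4, while the WT HFD mice 155, 161, 162 and 164, with indices of 4.27 to 4.54, measured 13.2 to 15.1 FPKM. The MlklAdi-KO HFD mice 156 and 157, with indices of 3.04 and 3.03, measured 5.53 and 6.30 FPKM, above every lean MlklAdi-KO mouse. Their indices were also above those of all lean mice, which reached at most 2.40. On NCD the index stayed between 1.86 and 2.40, and the 3 lowest Cxcr4 values, 3.07, 3.11 and 3.37 FPKM, belonged to MlklAdi-KO mice with indices of 1.98, 2.17 and 2.06. With the means of the 4 visWAT groups removed, Pearson's r over 18 libraries between receptor and index was 0.78 for Cxcr4, 0.77 for Cx3cr1, 0.73 for Ccr1, 0.43 for Ccr7, 0.40 for Ccr2, 0.26 for Cxcr3, 0.18 for Cxcr6, -0.25 for Ackr1 and -0.64 for Ackr3. These r values are descriptions, since the points share their libraries, their scaling and the few HFD MlklAdi-KO mice that spread most. Cxcr4 was in the same way at 0.73 with the macrophage list, 0.47 with the T cell list, -0.36 with the endothelial list and -0.73 with the adipocyte list. No r pooled over both genotypes on HFD is given, because the HFD genotypes form separate clusters of Cxcr4 with 5 mice each. Over the 8 NCD mice of both genotypes, r with the leukocyte index was -0.20 for Cxcr4 (-0.23 without mice 182 and 183). It was 0.66 for Ccr2 and 0.58 for Ccr1, and between -0.29 (Cx3cr1) and 0.12 (Ackr1) for the others. These NCD values pool the genotypes without removing group means, so they cannot be set against the 0.78 of Cxcr4. On NCD, MlklAdi-KO mice had a lower mean of Cxcr4 and a higher mean index than WT mice. The index range on NCD was also narrow, and r within the NCD groups was not computed.

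**Figure D3:**
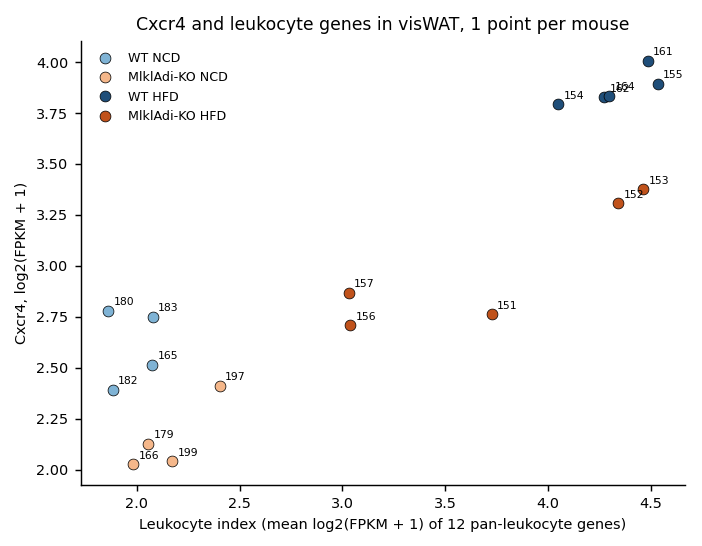
Cxcr4 as log2(FPKM + 1) on the vertical axis against the leukocyte index, the mean log2(FPKM + 1) of 12 pan-leukocyte genes, in the 18 visWAT libraries, with the mouse number beside each point. The MlklAdi-KO HFD mice 152 and 153 share the index range of the WT HFD mice, 4.05 to 4.54, but lie lower in Cxcr4.

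Measured against the index, Cxcr4 overlapped between the genotypes on HFD. The ratio of Cxcr4 FPKM to the geometric mean of the 12 genes was 1.62, 2.48, 1.77 and 2.0 in WT NCD mice, 1.15, 1.18, 1.09 and 0.981 in MlklAdi-KO NCD mice, 0.863, 0.649, 0.732, 0.750 and 0.739 in WT HFD mice and 0.504, 0.481, 0.463, 0.831 and 0.953 in MlklAdi-KO HFD mice. On HFD the genotypes overlapped, with the MlklAdi-KO mice 151, 152 and 153 below and 157 above all WT mice (log2 difference -0.27, exact permutation p = 0.246). On NCD they did not overlap (-0.82, exact permutation p = 0.0286, the smallest that 4 against 4 mice allow and not adjusted for the 9 receptors). The Ccr7 ratio did not overlap on NCD either (-0.96, exact permutation p = 0.0286), and the Cx3cr1 ratio differed by -0.81 (exact permutation p = 0.0571). The 7 B cell genes also separated the genotypes on NCD, with a summed FPKM of 4.21 to 6.83 in WT and 1.85 to 3.41 in MlklAdi-KO mice (index difference -0.27, exact permutation p = 0.0286, not adjusted over the lists). HFD lowered the ratio in both genotypes without overlap, with log2 differences of -1.39 in WT (exact permutation p = 0.00794) and -0.83 in MlklAdi-KO mice (exact permutation p = 0.0317). Cxcr4 thus rose on HFD by less than the leukocyte genes did.

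The same step was fitted across all genes in limma, as the difference of each gene from the index. For genotype on HFD it called none of 8 receptors and 0.0143% of genes, with 3993 genes and no receptor at an unadjusted p under 0.05. Cxcr4 was at -0.26 (interval -0.84 to 0.32, adjusted p = 0.39), and the other 7 receptors were between 0.24 (Ccr7) and 0.63 (Ackr1), where the median of all genes was 0.61. Without MlklAdi-KO mouse 153, Ackr3, Ackr1, Ccr1 and Cxcr6 were called higher (0.64 to 0.81), as were 9649 of 13976 genes in that fit, whose median was 0.79. With the index as a covariate instead, a fit chosen after seeing the data, Cxcr4 was called (-0.62, SE 0.09, adjusted p = 0.0481). That fit called 9 of 13963 genes. The Cxcr4 call on HFD thus differed with how leukocyte content entered the model. For genotype on NCD no receptor and 0% of genes were called, with 549 genes at an unadjusted p under 0.05. There Cxcr4 had the value -0.64 (SE 0.14, interval -0.94 to -0.34, adjusted p = 0.635). Of the 7 receptors tested it was the 1 with an unadjusted p under 0.05, and Ccr7 and Cx3cr1 had not passed the filter. With all 9 tested, 2 receptors had such a p without the filter, beside 1596 of 30235 genes. On the TPM scale there were 3, beside 1069 of 18067 genes. Without mice 182 and 183 the Cxcr4 value was -0.68 (adjusted p = 0.122).

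Relative to the index, all 8 receptors were called lower on HFD in both genotypes, but so were most genes, since 98.8% of genes were called in WT (98.1% lower and 0.671% higher) and 94% in MlklAdi-KO mice. On the log2(FPKM + 1) scale, Cxcr4 had the value nearest to 0 of the 8 in both, at -1.09 in WT (SE 0.13, adjusted p = 3.65e-06) and -0.71 in MlklAdi-KO mice (SE 0.34, adjusted p = 0.0456). Ccr2 followed with -1.25 and -0.89, and Cxcr6 was farthest from 0 with -2.42 and -1.71. The order differed for the FPKM ratios to the index genes, where the log2 differences in WT were -0.99 for Ccr1, -1.14 for Ccr7 and -1.31 for Ccr2 beside -1.39 for Cxcr4, and in MlklAdi-KO mice -0.30 for Ccr7 beside -0.83 for Cxcr4. The Cxcr4 call in MlklAdi-KO mice was lost without any 1 of the mice 166, 179, 197, 199, 151, 152 or 153 (adjusted p between 0.0829 and 0.118), without the filter (adjusted p = 0.0628) and with Ptprc alone as the index (-0.14, adjusted p = 0.645). Without the WT NCD mice 182 and 183, all 8 receptors were still called lower in WT mice, Cxcr4 at -1.14. With the index as a covariate these diet values turned sign for Cxcr4 (0.56 and 0.18) and were not called. The index does not overlap between the diets, so diet and leukocyte content cannot be told apart in that fit.

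**Figure D4:**
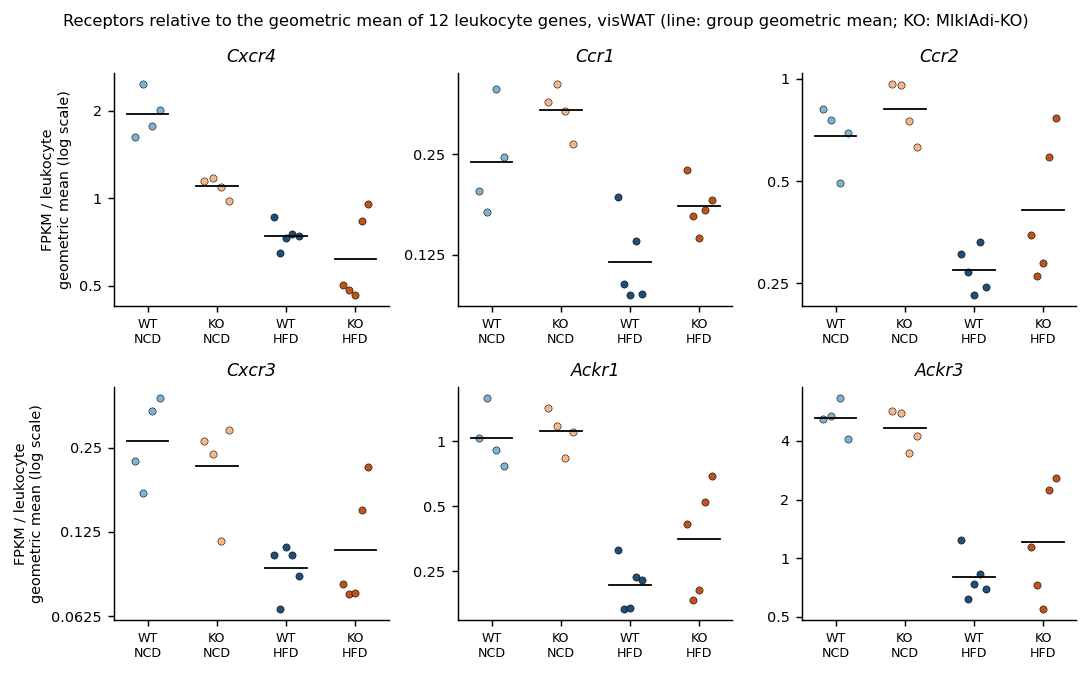
Ratio of receptor FPKM to the geometric mean FPKM of 12 pan-leukocyte genes in visWAT, on a log2 axis, for Cxcr4, Ccr1, Ccr2, Cxcr3, Ackr1 and Ackr3; each point is 1 mouse, the line is the geometric mean of its group and KO stands for MlklAdi-KO. The Cxcr4 ratio was 1.62 to 2.48 in WT NCD mice and 0.981 to 1.18 in MlklAdi-KO NCD mice, and the genotypes overlapped on HFD.

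Cxcr4 was set against the other receptors by taking the log2 level of each gene relative to Cxcr4 in the same library. This fit was chosen after seeing the data. Cxcr4 already had the largest genotype difference on HFD and the largest diet differences of the tested receptors on this scale. Smaller changes of the others are therefore no independent result, and all genes share the subtracted Cxcr4 values. For genotype on HFD, all 7 other tested receptors were called as less lowered than Cxcr4, by 0.50 (Ccr7), 0.59 (Cxcr3), 0.78 (Ccr2), 0.78 (Cxcr6), 0.79 (Ackr3), 0.80 (Ccr1) and 0.88 (Ackr1), with adjusted p-values from 0.000292 (Ccr2) to 0.0102 (Ccr7). In that fit 95.6% of all genes were called, with a median of 0.87, so a smaller decrease than that of Cxcr4 was shared by most genes. Of the 12 pan-leukocyte genes only 3 were called, all with a smaller decrease than Cxcr4, and the median of the 12 was 0.23. The Ccr7 call was lost with a pseudocount of 0.1 (0.24, adjusted p = 0.416) and on the TPM scale (0.34, adjusted p = 0.17). On NCD, Ccr2 (0.80), Ccr1 (0.79) and Ackr1 (0.73) were called against Cxcr4 at adjusted p = 0.035, beside 48.9% of all genes, while Ackr3 (0.53, adjusted p = 0.0542), Cxcr6 (0.46, adjusted p = 0.0974) and Cxcr3 (0.43, adjusted p = 0.11) were not. All 3 calls were lost when any of the mice 180, 183, 166, 179 or 199 was left out.

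For diet, the monocyte receptors had the differences nearest to that of Cxcr4 on the log2(FPKM + 1) scale, an order that depended on the pseudocount. In WT mice, Ccr2 (-0.15, SE 0.14, adjusted p = 0.298) and Ccr1 (-0.30, SE 0.18, adjusted p = 0.128) were not called against Cxcr4, with intervals of -0.46 to 0.15 and -0.70 to 0.10, whereas Ccr7 (-0.57), Cxcr3 (-0.61), Ackr1 (-0.85), Ackr3 (-1.18) and Cxcr6 (-1.32) were called as less raised, beside 94.1% of all genes (91.4% as less raised). In MlklAdi-KO mice, Ackr1 (-0.69), Ackr3 (-0.92) and Cxcr6 (-0.99) were called and Ccr2 (-0.18), Ccr1 (-0.29), Ccr7 (-0.36) and Cxcr3 (-0.44) were not, beside 83.2% of all genes. The calls of Ccr7 and Cxcr3 in WT mice were lost with a pseudocount of 0.1, where Ccr7 was at 0.04 and Cxcr3 at -0.23. They were also lost on the TPM scale, with Ccr7 at -0.31 (adjusted p = 0.289) and Cxcr3 at -0.44 (adjusted p = 0.103). Without the WT NCD mice 182 and 183, Ccr7 was not called (-0.43, adjusted p = 0.0619) and Cxcr3 was (-0.40, adjusted p = 0.0329).

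The ligands were examined as a list of 17 genes. For genotype, none of the 16 tested on HFD and none of the 14 tested on NCD was called in limma. Cxcl12, the ligand of Cxcr4 and Ackr3, had group means of 16.7 and 22.4 FPKM on NCD and 18.5 and 18.3 FPKM on HFD for WT and MlklAdi-KO mice, and its genotype difference was -0.02 on HFD (SE 0.06, adjusted p = 0.892) and 0.41 on NCD (SE 0.13, adjusted p = 0.916). Ccl5, a ligand of Ccr1, was at -0.62 (SE 0.14, adjusted p = 0.221) for genotype on HFD. HFD raised 9 and lowered 3 of 16 ligands in WT mice, where 37.8% of all genes were called, with a list median of 0.81 against -0.01 for all genes. The filter mean is taken over both diets, and 14 ligands passed it in the NCD mice alone. Ligands low on NCD may thus have passed it through the HFD mice, and such calls are no independent count. The monocyte attractants Ccl2 (2.50) and Ccl7 (2.18), which bind Ccr2, and Ccl9 (3.17), Ccl6 (2.62) and Ccl3 (1.76), which bind Ccr1, rose, and the Ccr7 ligands Ccl21a (-1.84) and Ccl19 (-1.13) fell. Cxcl12 was not called in WT mice (0.15, adjusted p = 0.282) and fell by 0.28 in MlklAdi-KO mice (adjusted p = 0.0256), where 7 ligands rose and 3 fell beside 43.7% of all genes called. Cxcr4 was thus called higher on HFD in both genotypes, while Cxcl12 mRNA was called higher in neither. The ligand values that rest on the WT NCD group are given only with mice 182 and 183. A link between the levels of receptor and ligand was not tested.

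Of 14 further chemokine receptors, 4 passed the filter in WT mice for diet and 3 in MlklAdi-KO mice. Here too a gene low on NCD can pass the filter through the HFD mice. Values of these receptors and of the signalling genes below that rest on the WT NCD group are given only with mice 182 and 183. Ccrl2, a non-signalling receptor of chemerin, rose by 0.83 in WT (adjusted p = 0.0176) and by 0.81 in MlklAdi-KO mice (adjusted p = 0.00225), and the scavenger Ackr2 rose by 0.59 (adjusted p = 0.0166) and 0.30 (adjusted p = 0.0258), while Ccr10 fell by 0.40 in WT mice (adjusted p = 0.0182). For genotype none of them was called on either diet. Among 16 genes of receptor signalling and desensitization, HFD raised 9 and lowered 1 in WT and raised 7 and lowered 1 in MlklAdi-KO mice, and none was called for genotype. The shares of all genes called were the 37.8% and 43.7% given above, to which the 8 of 16 in MlklAdi-KO mice came near. The list medians for genotype on HFD were -0.25 for the further receptors, -0.17 for the ligands and -0.23 for the signalling genes, against -0.08 for the 8 receptors of the set, -0.63 for the pan-leukocyte genes and near 0 for all genes.

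In the liver every receptor was low. Cxcr4 measured 0.836, 0.473, 2.88 and 0.468 FPKM in WT NCD mice, 0.427, 0.795, 0.726 and 0.493 FPKM in MlklAdi-KO NCD mice, 0.928, 0.561, 0.678, 0.243 and 0.483 FPKM in WT HFD mice and 0.135, 0.980, 0.515, 0.349 and 0.372 FPKM in MlklAdi-KO HFD mice, from 4 to 108 reads. The groups overlapped, and mouse 182 held the highest value. Ackr1 ranged from 0.245 to 1.26 FPKM, Ackr3 from 0.119 to 0.621 FPKM, and Ccr1 was listed at 0 in 5 of 18 livers with at most 16 reads. Cx3cr1 was 0.201, 0.166, 2.22 and 0.250 FPKM in WT NCD livers and 0.0395 to 1.09 FPKM in the others. Cxcr4 and Ackr1 passed the filter in each liver comparison, and Cx3cr1 in the WT diet comparison through mouse 182 alone. None was called in limma for genotype on HFD (0.197% of genes called) or NCD (0.00758%), for diet in WT (25.3%) or MlklAdi-KO mice (22.2%) or for the interaction (0.0151%), and none had an unadjusted p under 0.05. edgeR and DESeq2 called none of them either. The other 6 receptors were too low to be tested in the liver. The Cxcr4 genotype difference was -0.11 on HFD (SE 0.16, adjusted p = 0.825) and -0.31 on NCD (SE 0.30, adjusted p = 0.996), and 0.018 on NCD without mouse 182. Likewise, the WT diet difference of Cxcr4 was -0.34 (SE 0.28, adjusted p = 0.41) with and -0.019 without mouse 182.

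Liver receptors also varied with leukocyte genes. Over 18 livers with group means removed, r with the leukocyte index was 0.93 for Ccr2, 0.84 for Cx3cr1, 0.75 for Cxcr4 and 0.70 for Ccr7, and between 0.28 (Ackr3) and 0.58 (Cxcr3) for the other 5. The index was highest in MlklAdi-KO HFD mouse 152 (2.12) and WT NCD mouse 182 (1.77), each far from the others of its group. These livers also gave the highest Ccr2, Cx3cr1, Cxcr4 and Ccr7 values. The r values may thus rest largely on them, and r without them was not computed.

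Compared with the liver of the same mice, visWAT of WT NCD mice held more Ackr3 (log2 difference 3.5, adjusted p = 4.69e-08), Cxcr4 (1.62, SE 0.30, adjusted p = 0.00146), Ackr1 (1.17, adjusted p = 0.000349) and Ccr2 (1.13, adjusted p = 0.000679), while Cxcr3 (0.37), Cxcr6 (0.31) and Cx3cr1 (-0.14) were not called, in limma with 65.5% of genes called and 31.5% as higher. The main tissue fits did not pair the libraries of a mouse. In WT HFD mice all 7 tested receptors were called higher in visWAT, with 84.6% of genes called and 41.6% as higher. These were Ackr3 (3.59), Cxcr4 (3.23), Ccr2 (2.12), Ccr1 (1.54), Ackr1 (1.5), Cxcr3 (1.23) and Ccr7 (0.99), of which Ackr3, Ccr2, Ccr1, Ccr7 and Cxcr3 had liver means below 0.5 FPKM and so passed the filter through visWAT. On NCD the same held for Ackr3, Ccr2, Cxcr3 and Cxcr6, while Cx3cr1 had a visWAT mean below 0.5 FPKM and passed through the liver of mouse 182. With levels rescaled to TPM, the median over genes moved to 0.55 on NCD and 0.91 on HFD, calls split into 7019 higher and 2357 lower on NCD and 12920 higher and 3186 lower on HFD, and 7 receptors were called on NCD and 9 on HFD. Without the visWAT libraries of mice 182 and 183, the same 4 receptors were called on NCD, with Cxcr4 at 1.66 (adjusted p = 0.0118). Without the liver library of mouse 182, Cxcr4 was at 1.95 (adjusted p = 1.19e-05) and Cxcr3 was called as well (0.45, adjusted p = 0.038).

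The genes whose visWAT pattern was most like that of Cxcr4 were ranked by Pearson's r of log2(FPKM + 1) over 18 libraries among 12067 genes with a mean of at least 1 FPKM. Ccr7, Cx3cr1 and Cxcr6 were below that mean and were not ranked. The nearest genes were Madd (0.96), Cyb5r4 (0.96), Tyk2 (0.94), Heatr5a (0.94), Xpo6 (0.94), Zdhhc14 (0.94), Rasal3 (0.94) and Ankrd13a (0.94). Many others were about as near, since the 99th percentile of r was 0.905. The pan-leukocyte gene Ptprc stood at rank 40 (0.92). Zdhhc14, for example, had means of 2.09 and 2.03 FPKM on NCD and 5.62 and 3.91 FPKM on HFD for WT and MlklAdi-KO mice, and Rasal3 0.683 and 0.477, then 2.27 and 1.54 FPKM. Among the receptors, Cxcr3 (0.83), Ccr2 (0.75) and Ccr1 (0.68) were nearest to Cxcr4, and Ackr1 (0.36) and Ackr3 (-0.08) were far. With group means removed, Ctdp1 (0.88), Gna12 (0.88), Mrtfa (0.88), Neurl3 (0.87), Lcp2 (0.87), Arhgap4 (0.86), C5ar2 (0.86) and Pcdh7 (0.85) were nearest. Ptprc was then at rank 106 (0.784), and the 99th percentile of r was 0.779. The r values describe these libraries only, which share the diet and genotype groups, and 3 and 2 of the 8 genes stayed in these lists without mice 182 and 183.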

How the data were processed

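RNA from visWAT and liver of 18 mice was sequenced as poly(A) libraries (Illumina, paired ends). Per the labels and methods, the authors used fastp for trimming, HISAT2 for mapping to mm39 and featureCounts 1.5.0-p3 for the deposited counts. The FPKM were computed by the authors from these counts and deposited for 56748 genes in all 36 libraries, without pooling. The annotation release and strand setting are not given in the sources used here. Dividing the library size that the FPKM imply by the sum of reads on genes gave 1.01 to 1.40 for visWAT libraries and 0.737 to 0.812 for livers, so FPKM rescaled to an equal sum (TPM scale) served as an alternative. The deposited count columns cover only the genes listed in the comparison tables and were not tested. Columns with the authors' fold changes and p-values hold their own comparisons and were not used, nor were 72 columns of repeated or normalized values.

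Whole reads were recovered from the FPKM for 100% of values (tolerance 0.02). Groups came from the labels. The main test was limma 3.58.1 (R 4.3.3) with an empirical Bayes trend on log2(FPKM + 1), two-sided, for genes with a mean of at least 0.5 FPKM, with Benjamini-Hochberg adjustment over all genes tested and a threshold of 0.05. edgeR 4.0.16 (quasi-likelihood) and DESeq2 1.42.0 were run on the recovered reads, which were rounded to whole numbers. Single values were compared by two-sided exact permutation tests over mice. Scripts were tested on simulated data. The fits were repeated with a pseudocount of 0.1, without the filter, with a filter of 1 FPKM, leaving out each mouse, leaving out the visWAT libraries of the WT NCD mice 182 and 183, and the mouse as a block for tissue comparisons, since visWAT and liver carry the number of the same mouse. The fit of the index as a covariate, the reads scaled to leukocyte reads and the levels relative to Cxcr4 were chosen after seeing the data. The 9 receptors and all lists were chosen with earlier results of these data known.

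Of each further list at most 4 called genes with the largest change were named, the ligands and pan-leukocyte genes excepted. One further receptor is not reported here. For likeness to Cxcr4, the 8 genes with the highest r were named, without predicted genes. No 2 replicates were duplicates within sampling noise, as the lowest chi-square per gene over 64 pairs was 9.82. Each mouse gave 1 library per tissue, so p-values within a tissue measure the spread between mice. For visWAT against liver, the main fit did not pair the libraries of a mouse.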

Additional observations from a re-analysis of the deposited data

Results flagged for a closer look

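In 9 of 80 groups of 4 or 5 mice, 1 mouse lay far from the others by Dixon's test at the 95% level. Chance alone flags about 1 in 20 groups of normally distributed values, a rate that need not hold for genes with few reads. The gap to the nearest mouse, divided by the range of the group, was between 0.742 and 0.959. In the liver of WT NCD mouse 182, Cxcr4 was at 2.88 FPKM, Ccr1 at 0.273 FPKM, Ccr7 at 0.707 FPKM and Cx3cr1 at 2.22 FPKM, and the leukocyte index was 1.77. All 5 were the highest of the group. In the liver of MlklAdi-KO HFD mouse 152, Cxcr3 was at 0.271 FPKM and the leukocyte index at 2.12, and in its visWAT Cxcr6 was at 0.737 FPKM, again the highest of their groups. Ccr1 was listed at 0 in the liver of MlklAdi-KO NCD mouse 179, but the mice 166, 197 and 199 of that group had 1 read each, so this flag rests on 1 read.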

How the results depend on the processing

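Of 1882 refits of values for single receptors and other values, covering 120 results, 1730 kept direction and side of the threshold, 58 moved, 58 lost and 24 gained a call, and 12 turned direction. For genotype on HFD in visWAT, DESeq2 called 146 and limma 3 of 13963 genes. Of the receptors, DESeq2 called 1 (Cxcr4, -0.92) and limma 0. Leaving out 1 mouse, limma called 0 to 1, with Cxcr4 between -0.96 and -0.79 and called without mouse 153. The leukocyte index difference ranged from -0.79 to -0.44. Relative to the index, leaving out 1 mouse gave 0 to 4 receptors for genotype on HFD. The 4 came without mouse 153, where most genes were called as given above. For diet in MlklAdi-KO mice, leaving out 1 mouse gave 5 to 8, the 5 without mouse 152. The fit with all mice called 94% of genes there. With the index as a covariate, chosen after seeing the data, genotype on HFD called 1 receptor (Cxcr4, -0.62), among 9 of 13963 genes. Diet called 0 receptors in WT and 0 in MlklAdi-KO mice, beside 0 of 14161 and 2786 of 14026 genes. There the diet values turned direction in WT for Cxcr4 (0.56), Ackr3 (1.58), Ackr1 (2.11), Ccr1 (1.95) and Ccr7 (0.41), and in MlklAdi-KO mice for Cxcr4 (0.18), Ackr3 (0.37), Ackr1 (0.25), Ccr2 (0.42), Ccr7 (0.085) and Cxcr3 (0.27), none called. With Ptprc alone as the index, diet in MlklAdi-KO mice called 3 receptors (Ackr1, Ackr3 and Cxcr6), beside 10501 of 14026 genes.

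Relative to Cxcr4, also chosen after seeing the data, genotype on NCD called 5 receptors without the WT NCD mice 182 and 183, beside 7612 of 13930 genes. It called 0 to 6 when 1 mouse was left out, the 6 without mouse 197. Diet in WT called 3 with a pseudocount of 0.1, beside 12732 of 14160 genes, where Ccr7 turned to 0.039. It called 3 with a filter of 1 FPKM, beside 11332 of 12110 genes, under which fewer receptors were tested. On the TPM scale, visWAT against liver on NCD called 7 receptors instead of 4, beside 9376 of 17584 instead of 9527 of 14544 genes. The exact tests of single receptors for genotype on NCD gave 1 instead of 0 on that scale. Leaving out 1 mouse, these exact tests gave 0 to 2 in visWAT on NCD, and in the liver 0 to 1 for genotype on NCD, 0 to 2 for diet in WT (the 2 without mouse 182) and 0 to 1 for diet in MlklAdi-KO mice (the 1 without mouse 152). Of the 8 genes most like Cxcr4, 3 stayed without mice 182 and 183 and 2 on the TPM scale, and with group means removed 2 and 4. The cause of these changes was not tested. With the mouse as a replicate block, visWAT against liver called the same 4 receptors on NCD and the same 7 on HFD. These fits called 8989 of 14544 genes on NCD and 12304 of 14666 on HFD. Liver receptors rested on few reads, and the filter of 1 FPKM left none to test there.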
